A study of Mus musculus with 15 samples.

Results

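The sites of the rod factor NRL were examined at 5 genes that encode transcription factors of photoreceptor specification, Crx, Otx2, Rax, Prdm1 and Mef2d. The members are all peaks that the authors' annotation assigned to these gene symbols, 13 of 8996 in the quantitation table: 3 at Crx, 5 at Otx2, 1 at Rax, 2 at Prdm1 and 2 at Mef2d. They were mapped by CUT&RUN: an antibody against NRL holds a nuclease at the bound sites of permeabilised cells, and the released fragments are sequenced. The cells were 250000 dissociated retinal cells per experiment from the mouse strain C57BL/6J. Ages are written as P2, P4, P10 and P28, for days 2, 4, 10 and 28 after birth. No genotype or treatment is given in the labels, and the groups differ by age alone. Of 15 labelled libraries, 8 have values in the table, 2 at each age, and the other 7 were not analysed here. No library made without the NRL antibody was analysed here.

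NRL is a basic leucine zipper protein of the Maf family that directs photoreceptor precursors of the mouse to the rod fate. OTX2 and CRX are related homeodomain proteins: in mouse retina OTX2 commits progenitors to photoreceptor and bipolar fates and activates Crx, and CRX then drives the genes of the outer segment. RAX is a homeodomain protein of the eye field that is used again in maturing photoreceptors. PRDM1 (Blimp1) is a zinc finger repressor made for a short time in young photoreceptors of the mouse, where it holds back the bipolar fate. MEF2D is a MADS-box factor that shares many retinal enhancers with CRX. NRL and CRX act together on many rod promoters, and the comparison asks where and when NRL is found at the genes of these partners.

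The retina is a mixture in which the share of rods, their maturity and the NRL bound per rod can each change with age, and in bulk libraries these cannot be told apart. Peaks lay within 50 kb of 5 of 5 rod markers and 1 of 4 cone markers (Gnat2), and near 0 of 3 markers each of bipolar cells, Müller glia, and microglia with vessels. Reads inside peaks ranged from 49430 to 227692 per library, with medians of 4 to 15 reads per peak. Values are RPKM, reads scaled to the peak's own length and to the library, where 3 reads in a peak of median width are worth 1.16 to 1.77 RPKM. No label ties the replicates to separate animals, and p-values thus rest on a spread between libraries that may be technical. Differences are on the scale of log2(RPKM + 1), with the later age over the earlier, and were tested with limma over all 8996 peaks. A peak is called at an adjusted p under 0.05. Every peak of the table is in the authors' list of at least 1 age, so a peak listed at 1 age alone entered the table through the age where it was found. Likewise a peak listed at P10 and P28 only entered through those ages, where its signal was high enough to be found. The median peak of the whole table differed between ages by 0.48 for P4 against P2, 0.73 for P10 against P4, −0.69 for P28 against P10, 1.18 for P10 against P2 and 0.57 for P28 against P2, all log2. How the authors set the library scales is not given, so a shift of all peaks and a shift of scale cannot be told apart. Each member was therefore also read against that shift, with every library centred on its own median.

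Stretches of the Crx and Otx2 promoters are shown because the summits of their promoter peaks fall in them. They come from the RefSeq promoter table of GRCm38.p6 and run 5′ to 3′ on the minus strand, which is the coding strand of both genes. Crx is the part of the promoter peak that lies before the annotated start, 198 bases at chr7:15879956-15880153. Capitals mark GGATTA, the reverse complement of TAATCC, the homeodomain site bound by CRX and OTX2. Otx2 is a stretch of 30 bases at chr14:48667520-48667549 that holds the P4 summit. Capitals there mark TCAGCA, the reverse complement of TGCTGA, which is only a part of the Maf response element.
Crx: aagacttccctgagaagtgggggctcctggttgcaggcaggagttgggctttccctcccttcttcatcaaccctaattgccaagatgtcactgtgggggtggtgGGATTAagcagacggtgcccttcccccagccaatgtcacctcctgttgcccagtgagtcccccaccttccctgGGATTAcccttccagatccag
Otx2: gccagagaggcgctttcTCAGCAaatctcc
In the Crx stretch the matches begin at bases 105 and 178, that is at −94 and −21 from the RefSeq start site. The authors' peak summits fell at base 171 at P4 and P10 and at base 157 at P28, between the 2 matches. In the Otx2 stretch the match begins at base 18, at −24 from the start site, and the P4 summit is at base 4. Motifs were searched on both strands of 32851 promoter windows of 300 bases. TAATCC was found in 7.06% of them and TGCTGA in 19.5%. The AP-1 site TGANTCA was found in 7.81% and the CRE TGACGTCA in 1.79%, and neither has a match in the stretches shown. Of these motifs, the Crx window held TAATCC alone. A match in letters is a description and no test of binding.

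Crx had its strongest NRL peak not at the promoter but past the 3′ end of the gene. This 3′ peak (chr7:15864154-15864512, annotated as downstream and 1435 bp beyond the end of the transcript) had 9.82 and 9.54 RPKM in the P2 libraries, 14.1 and 35.0 in P4, 57.9 and 40.0 in P10 and 28.9 and 24.6 in P28. Its mean over all libraries stood at percentile 98.7 of the table. Both P10 libraries lay above every other library, and the P28 libraries lay above the P2 libraries and within the range of the P4 libraries.

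The Crx promoter peak (chr7:15879851-15880153) had 4.57 and 5.02 RPKM in the P2 libraries, 9.22 and 12.7 in P4, 28.6 and 15.6 in P10 and 10.7 and 9.73 in P28. Another peak lies in intron 1, 4314 bp downstream of the promoter's start site (chr7:15875509-15875800). It had 2.16 and 0.652 RPKM in the P2 libraries, 2.61 and 9.29 in P4, 10.3 and 13.2 in P10 and 10.1 and 6.73 in P28. In all 3 Crx peaks both P10 libraries were above both P2 libraries, as in 79.2% of all peaks.

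All 3 Crx peaks were called higher at P10 than at P2, as were 48.5% of all peaks. The 3′ peak averaged 49.0 ± 12.7 RPKM at P10 and 9.68 ± 0.201 at P2 (SD, 2 libraries each), a limma log2 difference of 2.20 ± 0.56 (SE, adjusted p = 0.0032). The intron 1 peak averaged 11.7 ± 2.12 RPKM at P10 and 1.40 ± 1.06 at P2, a difference of 2.47 ± 0.56 (limma adjusted p = 0.00144). The authors list the intron 1 peak at P10 and P28 only, so its calls against P2 use the ages that brought it into the table. At the promoter the means were 22.1 ± 9.16 RPKM at P10 and 4.80 ± 0.319 at P2, with a difference of 1.94 ± 0.54 (limma adjusted p = 0.00591). Without P10 replicate 1 the calls of the 3′ peak and the promoter were lost (limma adjusted p = 0.0665 and 0.124). Against the shift of all peaks none of the 3 was called: the centred limma differences were 1.02 (adjusted p = 0.0758) for the 3′ peak, 1.29 (adjusted p = 0.0671) for intron 1 and 0.75 (adjusted p = 0.2) for the promoter.

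The intron 1 peak was also called higher at P28 than at P2, as were 9.64% of all peaks, with means of 8.40 ± 2.37 and 1.40 ± 1.06 RPKM and a limma difference of 2.02 ± 0.56 (adjusted p = 0.0207). It rests on 31 reads at P28 and 6 reads at P2 over both libraries of each age, and the limma adjusted p was 0.183 without P2 replicate 4, 0.102 without P28 replicate 3 and 0.0512 with centred libraries. No Crx peak was called for P28 against P10 or for P10 against P4.

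The Crx locus holds further peaks that the annotation gives to Crxos, the antisense neighbour of Crx. Its promoter peak (chr7:15881300-15881725) begins 1332 bp upstream of the Crx promoter start. It averaged 17.8 ± 2 RPKM at P10 and 4.22 ± 1.55 at P2, a limma difference of 1.88 ± 0.53 (adjusted p = 0.00643). A stronger Crxos peak lies 26078 bp upstream of Crx (chr7:15905899-15906194). It averaged 12.6 ± 2.18 RPKM in P2, 31.1 ± 15.4 in P4, 50.1 ± 2.24 in P10 and 13.1 ± 1.39 in P28, and was called higher at P10 than at P2 (limma log2 1.92 ± 0.54, adjusted p = 0.00687) and lower at P28 than at P10 (limma log2 −1.85 ± 0.54, adjusted p = 0.0181). Together the 3 Crx and 2 Crxos peaks span 42041 bp. The RPKM ratio of the Crx 3′ peak to this distal Crxos peak was 0.888 and 0.675 in the P2 libraries, 0.702 and 0.834 in P4, 1.12 and 0.825 in P10 and 2.05 and 2.02 in P28. The ratio uses no library scale, and in both P28 libraries it was above that of each of the other 6 libraries. It was computed after the values had been seen and was not tested.

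**Figure D1:**
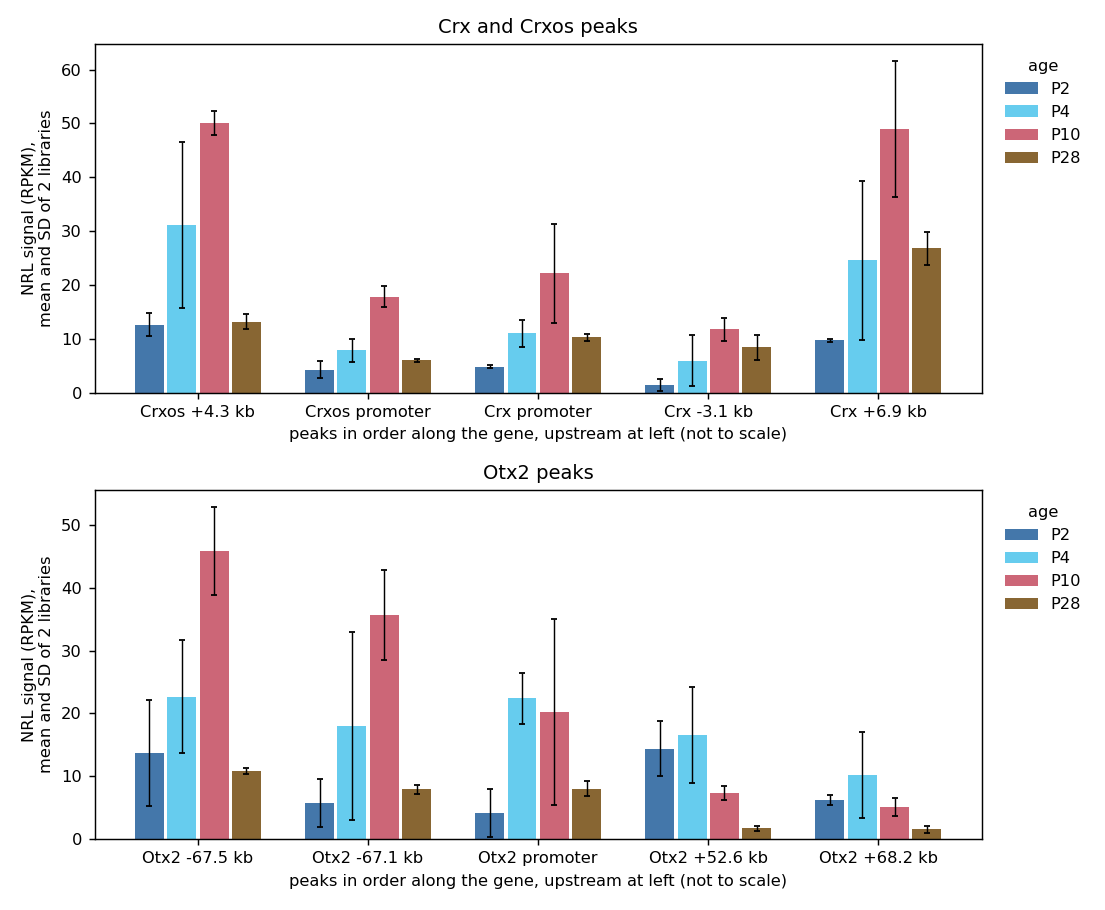
Mean NRL signal in RPKM at each age for the peaks of the Crx and Crxos locus (top) and of Otx2 (bottom), in order along each gene with upstream at the left; bars are means and error lines the SD of 2 libraries. Peak names give the authors' distance to the nearest annotated start site, and P10 is the highest age at every Crx and Crxos peak and at the upstream Otx2 pair, while P4 is the highest at the other 3 Otx2 peaks.

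Otx2 had 5 peaks, a number matched or passed by 57 of the 6860 genes with any peak, and 4 of them lie over 50 kb from the annotated start. An upstream pair, 92 bp apart, lies in intron 2 of the noncoding neighbour Otx2os1. Its stronger peak (chr14:48741325-48741683, −67506 bp) had 7.72 and 19.6 RPKM in the P2 libraries, 16.3 and 29.0 in P4, 50.9 and 41.0 in P10 and 11.2 and 10.5 in P28. The other (chr14:48740939-48741232, −67120 bp) had 3.00 and 8.41 RPKM in the P2 libraries, 7.34 and 28.7 in P4, 40.7 and 30.6 in P10 and 7.38 and 8.35 in P28. In both peaks the P10 libraries lay above every other library, and the P28 libraries lay between the 2 P2 libraries.

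The downstream pair showed another order of ages. The peak at +52645 bp (chr14:48608516-48609287) had 11.3 and 17.5 RPKM in the P2 libraries, 11.2 and 22.0 in P4, 6.53 and 8.08 in P10 and 1.40 and 1.91 in P28. The peak at +68207 bp (chr14:48593300-48593725) had 5.62 and 6.70 RPKM in the P2 libraries, 5.37 and 15.1 in P4, 4.07 and 6.15 in P10 and 1.09 and 1.92 in P28. These 2 peaks are 14790 bp apart, and in both the P28 libraries were the lowest of all 8.

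The upstream pair was called higher at P10 than at P2 and lower at P28 than at P10, and 20.7% of all peaks were called lower at P28 than at P10. At −67506 bp the means were 46.0 ± 7.0 RPKM at P10 and 13.7 ± 8.41 at P2, a limma difference of 1.80 ± 0.56 (adjusted p = 0.0124). The same peak averaged 10.9 ± 0.515 RPKM at P28, against 46.0 ± 7.0 at P10, a limma difference of −1.98 ± 0.56 (adjusted p = 0.0153). At −67120 bp the limma difference was 2.56 ± 0.61 for P10 against P2 (adjusted p = 0.00212) and −2.04 ± 0.61 for P28 against P10 (adjusted p = 0.0206). The authors list the −67120 bp peak at P10 and P28 only, so its call against P2 uses an age that brought it into the table. Leaving out any of the 4 libraries of P10 and P28 lost the P28 against P10 calls, with limma adjusted p from 0.0762 to 0.164 at −67506 bp and from 0.0557 to 0.173 at −67120 bp. The call at −67506 bp for P10 against P2 was lost without P2 replicate 3 (limma adjusted p = 0.195), P10 replicate 1 (0.115) or P10 replicate 4 (0.0635). Centred on the library medians, P28 against P10 was called at −67506 bp (limma log2 −1.38 ± 0.41, adjusted p = 0.0448) and not at −67120 bp (adjusted p = 0.0653). P10 against P2 was then called at neither peak (limma adjusted p = 0.355 at −67506 bp and 0.0744 at −67120 bp).

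At +52645 bp the signal fell to 1.66 ± 0.356 RPKM at P28, against 14.4 ± 4.41 at P2, a limma difference of −2.51 ± 0.54 (adjusted p = 0.00387). In scaled reads this peak was 8.33-fold lower at P28 than at P2 (exact 95% interval 4.95 to 15.0, counting error only). It was also called lower at P28 than at P10 (limma log2 −1.64 ± 0.54, adjusted p = 0.0312). That step was lost without any library of P28 or P10 (limma adjusted p 0.114 to 0.208) and with centred libraries (0.0852). P28 against P2 kept its call without each of the 8 libraries in turn, and of the 15 alternatives lost it only with the values as deposited, whose widths belong to other peaks (limma adjusted p = 0.286). The authors list this peak at P2, P4 and P10 and not at P28. Its P28 calls are thus set against ages that brought it into the table. The peak at +68207 bp was not called: its limma difference was −1.53 ± 0.53 for P28 against P2 (adjusted p = 0.056) and −0.25 for P10 against P2. With libraries centred on their medians both downstream peaks were called lower at P10 than at P2 (limma log2 −2.05 ± 0.38, adjusted p = 0.0034, at +52645 bp and −1.43 ± 0.40, adjusted p = 0.0335, at +68207 bp). The centred fit also called both lower at P10 than at P4 (limma log2 −1.73, adjusted p = 0.0174, and −1.46, adjusted p = 0.0485) and at P28 than at P2 (limma log2 −3.09, adjusted p = 0.000281, and −2.11, adjusted p = 0.00456).

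The split of the distal Otx2 reads between both pairs needs no library scale. The downstream pair held 75.2% and 63.2% of the reads in the 4 distal peaks in the P2 libraries, 57.7% and 55.4% in P4, 18.3% and 27.2% in P10 and 20.0% and 26.9% in P28. Over both libraries of an age these were 174 of 253 reads at P2 (68.8%, exact 95% interval 62.7 to 74.4), 250 of 445 at P4 (56.2%, 51.4 to 60.9), 114 of 496 at P10 (23.0%, 19.3 to 26.9) and 24 of 102 at P28 (23.5%, 15.7 to 33.0). Each library of P2 and P4 lay above each library of P10 and P28. The intervals cover counting error only. This share was chosen after the values had been seen and has no test.

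**Figure D2:**
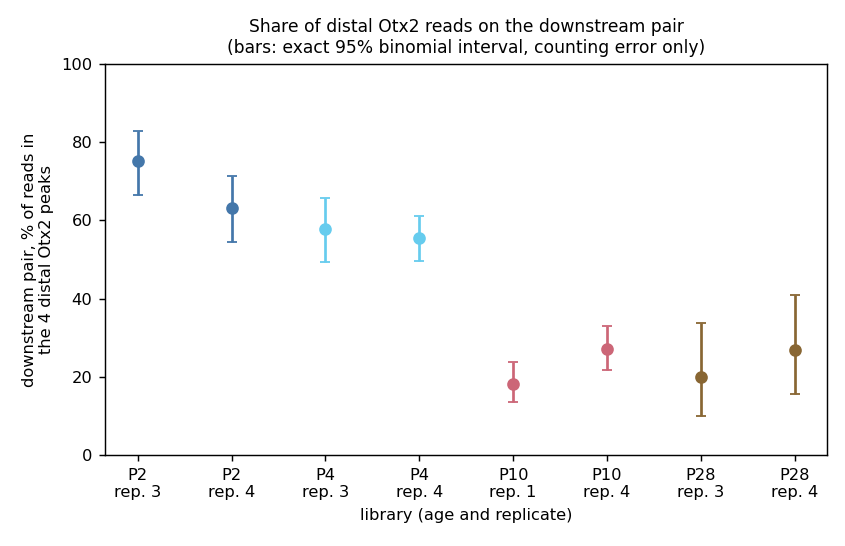
Percent of the reads in the 4 distal Otx2 peaks that lie on the downstream pair, for each library, with exact 95% binomial intervals. The 4 libraries of P2 and P4 lie between 55.4% and 75.2%, and the 4 libraries of P10 and P28 between 18.3% and 27.2%.

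The Otx2 promoter peak (chr14:48667476-48667605) had 6.78 and 1.46 RPKM in the P2 libraries, 19.5 and 25.3 in P4, 9.70 and 30.7 in P10 and 7.15 and 8.82 in P28. The P4 libraries lay above those of P2 and P28, while the P10 libraries spanned the P4 values. P10 against P2 was called (limma log2 2.07 ± 0.62, adjusted p = 0.00938), with means of 20.2 ± 14.9 and 4.12 ± 3.76 RPKM, and the call was lost without P2 replicate 4 (limma adjusted p = 0.184) or P10 replicate 4 (0.197) and with centred libraries (0.317). Only 8 reads supported the P2 mean and 40 the P10 mean, in a peak of 130 bp. The P4 against P2 difference was 2.41 ± 0.62 (limma adjusted p = 0.0955), and the authors list this peak at P4 alone, so a high value at P4 was a condition of its entry.

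Both Mef2d peaks were highest at P10. The authors list both at P10 and P28 only, so their calls at these ages use the values that brought them into the table. The upstream peak (chr3:88138357-88138566, −3806 bp) had 3.60 and 3.62 RPKM in the P2 libraries, 3.63 and 14.3 in P4, 21.8 and 30.3 in P10 and 12.5 and 17.2 in P28. The peak in intron 1 of 10 (chr3:88147872-88148182, +5298 bp) had 1.21 and 2.45 RPKM in the P2 libraries, 4.49 and 9.18 in P4, 16.7 and 16.9 in P10 and 7.97 and 10.0 in P28. At the intron 1 peak the P10 libraries lay above all others and the P2 libraries below all others. At the upstream peak the P10 libraries lay above all others, and P28 overlapped P4.

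The Mef2d intron 1 peak gave the smallest adjusted p of any member, at an age whose list brought it into the table. It averaged 16.8 ± 0.0918 RPKM at P10 and 1.83 ± 0.871 at P2, a limma difference of 2.69 ± 0.53 (adjusted p = 0.000493), and of the 20 calls made on the members it alone was kept under all 15 alternatives. Centred on the library medians it was 1.5 ± 0.38 (limma adjusted p = 0.0195). It was also higher at P28 than at P2, with means of 8.99 ± 1.44 and 1.83 ± 0.871 RPKM and a limma difference of 1.85 ± 0.53 (adjusted p = 0.0248), which centring kept (1.27 ± 0.38, adjusted p = 0.0483). This P28 call was lost with scales taken from the reads in peaks (limma-voom with TMM factors, adjusted p = 0.0655). It was also lost with a pseudocount of 0.1 (limma adjusted p = 0.0547). That call was lost without P2 replicate 3 (limma adjusted p = 0.158), P28 replicate 3 (0.0818) or P28 replicate 4 (0.135).

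The upstream Mef2d peak averaged 26.0 ± 6.04 RPKM at P10, against 3.61 ± 0.0181 at P2, a limma difference of 2.53 ± 0.58 (adjusted p = 0.00153). The centred difference was 1.35 ± 0.42 (limma adjusted p = 0.0482). With scales taken from the reads in peaks (limma-voom with TMM factors) it was 1.25 and not called (adjusted p = 0.077). P10 was also called higher than P4, where the mean was 8.95 ± 7.53 RPKM (limma log2 1.67 ± 0.58, adjusted p = 0.0489), a call that centring lost (0.95, adjusted p = 0.211). Without P4 replicate 3 that step was 0.80 (limma adjusted p = 0.308), without P10 replicate 1 it was 1.9 (adjusted p = 0.171), and without P10 replicate 4 it was 1.44 (adjusted p = 0.28). P28 was called higher than P2 (limma log2 1.77 ± 0.58, adjusted p = 0.0457), and limma adjusted p reached 0.0759 to 0.205 without any single library of P2, P10 or P28 and 0.0935 with centred libraries.

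**Figure D3:**
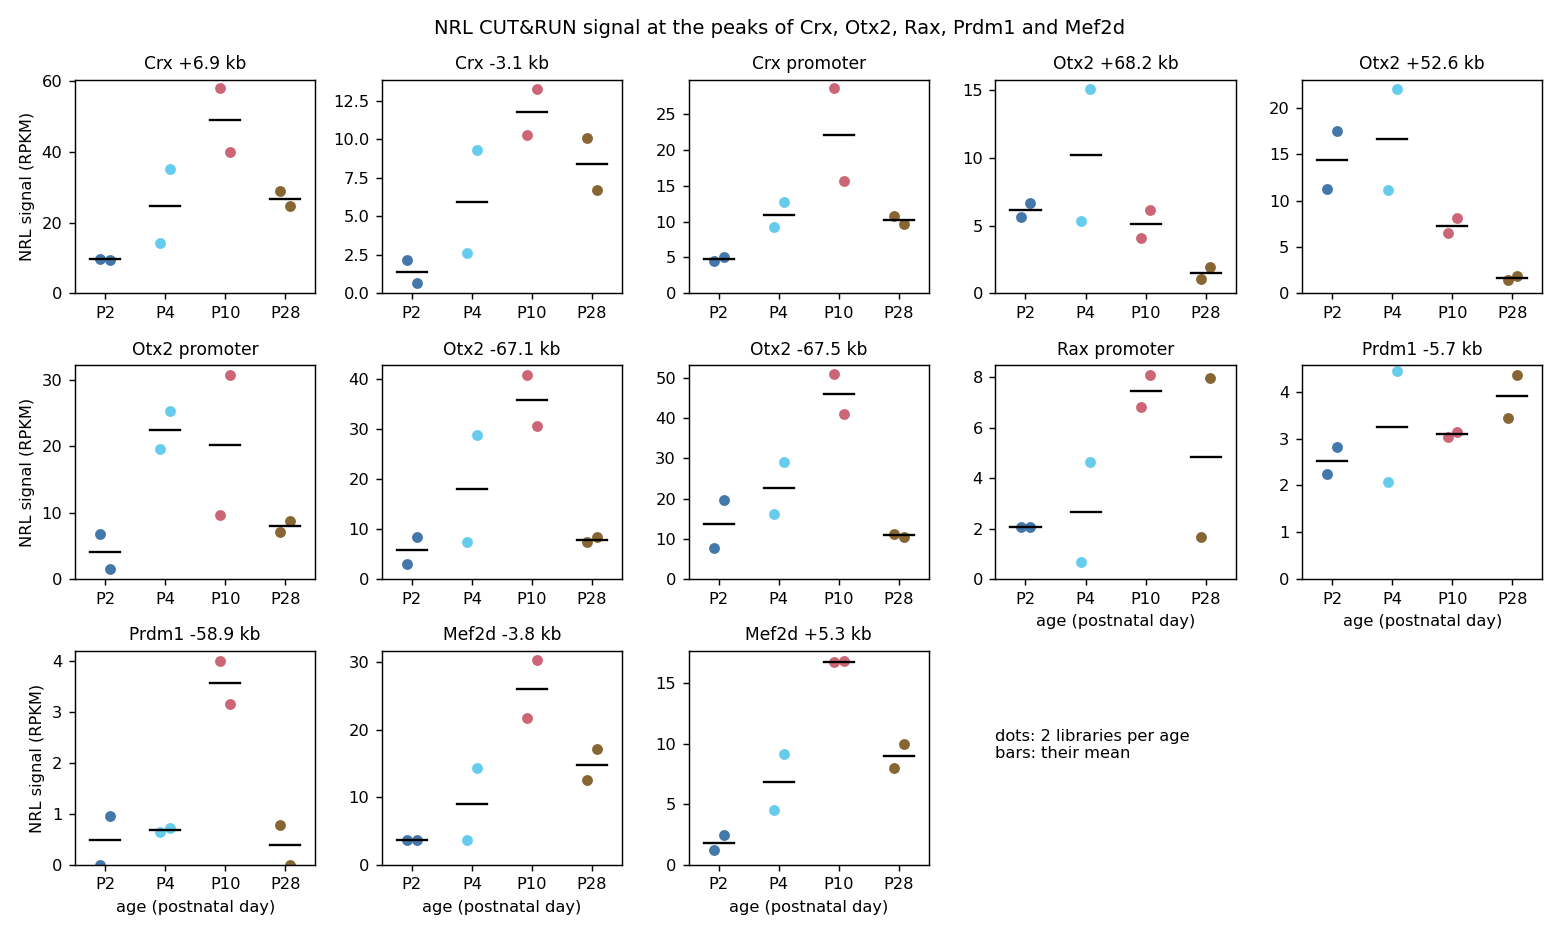
NRL signal in RPKM at each of the 13 member peaks by age; dots are the 2 libraries of an age and bars their mean. P10 holds the highest mean in most panels, while P4 holds it at 3 Otx2 peaks and P28 at the nearer Prdm1 peak.

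Prdm1 had 2 weak peaks. The nearer lies in intron 1 of a Prdm1 transcript (chr10:44464465-44465139, −5717 bp) and had 2.24 and 2.82 RPKM in the P2 libraries, 2.07 and 4.44 in P4, 3.03 and 3.14 in P10 and 3.44 and 4.37 in P28. It is the only member whose highest mean was at P28, and its P4 libraries lay below and above all libraries of the other ages. It was called in no comparison, with limma differences of 0.26 for P28 against P10 and 0.47 for P28 against P2. Its mean stood at percentile 32.4 of the table.

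The farther Prdm1 peak (chr10:44587420-44587616, −58919 bp) rests on 14 reads in all, with 0 and 1 in the P2 libraries, 1 and 1 in P4, 5 and 5 in P10 and 1 and 0 in P28. That is 0 and 0.966 RPKM in the P2 libraries, 0.645 and 0.725 in P4, 4.00 and 3.17 in P10 and 0.786 and 0 in P28, at percentile 0.978 of the table. It entered the table through the P10 list alone, so its calls at P10 describe the value that brought it in and support nothing further. Limma called it higher at P10 than at P4 (adjusted p = 0.0373) and at P2 (adjusted p = 0.00583), and lower at P28 than at P10 (adjusted p = 0.0104). In scaled reads P10 was 5.18-fold higher than P4 (exact 95% interval 1.10 to 48.6) and 9.19-fold higher than P2 (1.31 to 399). P28 was 8.75-fold lower than P10 (1.25 to 380). None of the 3 calls was kept with centred libraries (limma adjusted p = 0.458, 0.539 and 0.14). The call against P4 was lost without any library of P4 or P10 (limma adjusted p 0.0745 to 0.263), that against P2 without P2 replicate 3 (0.0749) or P10 replicate 1 (0.0755), and that of P28 without P10 replicate 1 (0.133), P10 replicate 4 (0.0668) or P28 replicate 4 (0.118).

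Rax had 1 peak, on its promoter (chromosome 18, 65939838 to 65940022, −51 bp), with 2.04 and 2.06 RPKM in the P2 libraries, 0.686 and 4.63 in P4, 6.81 and 8.09 in P10 and 1.67 and 7.96 in P28. The P10 libraries lay above those of P2 and P4, and the P28 libraries spread from below P2 to the level of P10. The peak entered the table through the P10 list alone, so a high value at P10 was a condition of its entry. P10 was called higher than P2, with means of 7.45 ± 0.904 and 2.05 ± 0.0103 RPKM and a limma difference of 1.47 ± 0.59 (adjusted p = 0.043). The counts were 20 reads at P10 and 5 at P2, and the call was lost without any library of either age (limma adjusted p 0.0819 to 0.145) and with centred libraries (log2 0.28, adjusted p = 0.769). A Cplx4 promoter peak 30518 bp away, Cplx4 being a complexin of photoreceptor ribbon synapses, averaged 29.8 ± 2.89 RPKM at P10 and 2.05 ± 0.975 at P2 (limma log2 3.37 ± 0.59, adjusted p = 0.000182). The authors list it at P10 and P28 only, so this call uses an age that brought it into the table. Of all peaks 48.5% were called higher in this comparison.

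Over the 13 members, P10 against P2 gave 10 called higher and 0 lower (76.9% of members), where 48.5% of all peaks were called higher and 1.56% lower in the same limma fit. Those not called were the downstream Otx2 pair and the nearer Prdm1 peak. Of those called, the Crx intron 1, Otx2 −67120 bp and both Mef2d peaks are listed at P10 and P28 only. Rax and the farther Prdm1 peak are listed at P10 alone. The calls of these peaks thus use an age that brought them into the table. The members come from only 5 genes, and their share was not tested against that of all peaks. The median difference was 1.94 for the members and 1.18 for all peaks. With centred libraries the split was 2 higher (both Mef2d peaks) and 2 lower (the downstream Otx2 pair), beside 715 higher and 456 lower of all 8996 peaks.

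The steps between neighbouring ages gave fewer calls. P4 against P2 gave 0 called members, as it gave 0.00% of all peaks; 4 members and 1365 of all peaks had an unadjusted limma p under 0.05. P10 against P4 gave 2 higher and 0 lower, beside 15.6% and 1.51% of all peaks (17.1% in either direction), with medians of 1.05 for the members and 0.73 for all. P28 against P10 gave 4 lower (3 of Otx2 and 1 of Prdm1), beside 20.7% of all peaks called lower and 21.9% in either direction, with medians of −0.98 for the members and −0.69 for all. The centred fit gave 0 higher and 2 lower for P10 against P4, beside 259 higher and 293 lower of all peaks. For P28 against P10 it gave 1 lower, beside 385 higher and 770 lower of all peaks.

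The steps into and out of P4 depended on which P4 library was used. P4 replicate 4 had 2.15% of its scale inside peaks and P4 replicate 3 had 1.09%, and all 13 members were higher in replicate 4. The median log2(RPKM + 1) over all peaks was 2.454 in replicate 4 and 1.815 in replicate 3, so the whole table was shifted too. With either left out, P4 is 1 library whose spread is taken from the other ages, on the assumption that it varies as they do. Most members named below were picked by their results in these fits, and not all members are given. Without replicate 3, the limma log2 difference for P4 against P2 was 1.75 at the Crx 3′ peak, against 1.13 with both P4 libraries. It was 2.17 at Crx intron 1 (1.42 with both) and 2.585 at the Otx2 promoter (2.41 with both). At Otx2 −67120 bp it was 2.27 (1.36 with both), at the upstream Mef2d peak 1.73 (0.87 with both) and at Mef2d intron 1 1.88 (1.44 with both). Among members not so picked it was 1.16 at Otx2 −67506 bp (0.76 with both) and 0.88 at Rax (0.015 with both). At the nearer Prdm1 peak it was 0.63 (0.22 with both). The Otx2 promoter difference for P4 against P2 was 3.24 without P2 replicate 3. The P28 libraries do not enter this difference, so without either of them it was 2.41 by design. Without replicate 4, the limma log2 difference for P10 against P4 was 1.70 at the Crx 3′ peak, against 1.07 with both P4 libraries. It was 1.81 at Crx intron 1, 2.12 and 1.435 at Otx2 −67120 and −67506 bp, and 2.32 at Rax. With both P4 libraries these were 1.055, 1.21, 1.04 and 1.45. At the upstream Mef2d peak it was 2.53 (1.67 with both) and at Mef2d intron 1 1.695 (1.25 with both). The P28 libraries do not enter this step, so Rax kept 1.45 without either of them by design. A difference between other ages does not use the P4 libraries, so leaving either out can change only the estimated spread. The Crx 3′ peak thus kept a limma log2 difference of 1.37 for P28 against P2 by design. Otx2 at +68207 bp likewise kept −1.53 for P28 against P2 and −1.28 for P28 against P10.

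P28 against P2 gave 3 higher (the Crx intron 1 peak and both Mef2d peaks) and 1 lower (Otx2 at +52645 bp), beside 9.64% of all peaks called higher and 3.00% lower. Centring turned this to 1 higher and 2 lower, beside 294 higher and 653 lower of all peaks. The F test over the 4 ages called 11 of 13 members, all but Rax and the nearer Prdm1 peak, beside 45.9% of all peaks. The libraries of the 2 ages did not overlap, with the later age higher, at 6 members for P4 against P2 (40.1% of all peaks), 9 for P10 against P4 (58.9%), 1 for P28 against P10 (10.1%), 11 for P10 against P2 (79.2%) and 7 for P28 against P2 (52.5%). The later age was the lower one at 0 members for P4 against P2 (3.91% of all peaks), 1 for P10 against P4 (6.31%), 11 for P28 against P10 (61.7%), 1 for P10 against P2 (3.72%) and 2 for P28 against P2 (11.8%).

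**Figure D4:**
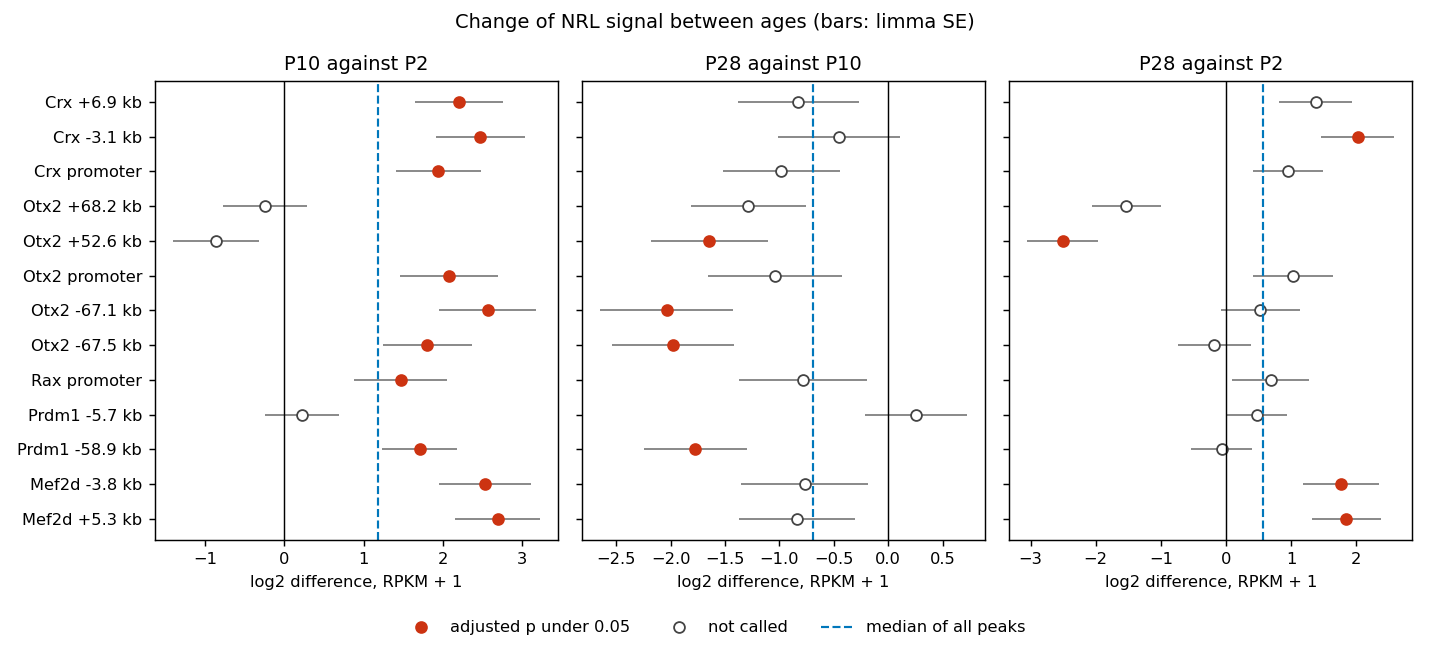
Log2 difference of RPKM + 1 with limma SE for the 13 members in 3 comparisons of ages; filled points are called at an adjusted p under 0.05, and the dashed line is the median of all 8996 peaks. For P10 against P2 10 members are called higher; for P28 against P2 the Otx2 peak at +52645 bp is the member called lower, at −2.51.

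Reads per gene were also set against all reads in peaks of the same library, which uses no library scale. Otx2 took 15.9 and 27.7 of every 10000 reads in peaks in the P2 libraries, 19.7 and 21.1 in P4, 12.4 and 12.9 in P10 and 5.70 and 6.39 in P28. The P28 libraries were the lowest and each P10 library lay below each library of P2 and P4. Crx took 5.62 and 5.46 per 10000 in P2, 7.93 and 8.88 in P4, 10.5 and 8.08 in P10 and 10.9 and 9.10 in P28. Mef2d took 1.15 and 1.62 in the P2 libraries, 1.98 and 2.72 in P4, 3.17 and 4.08 in P10 and 3.36 and 4.44 in P28. For Crx and Mef2d the P28 libraries lay above those of P2 and P4. Prdm1 ranged from 0.920 to 2.23 and Rax from 0.117 to 0.974 per 10000.

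The authors' lists, 1 per age, held 3 members in the list of P2, 7 in that of P4, 12 in that of P10 and 8 in that of P28, that is 23.1%, 53.8%, 92.3% and 61.5% of the 13. The same lists held 13.5%, 35.0%, 83.2% and 38.6% of all peaks in the table, and their lengths were 1221, 3161, 7520 and 3482 peaks. The Crx 3′ peak and the Otx2 peak at −67506 bp were in all 4 lists, as were 7.41% of all peaks. The Otx2 peak at +52645 bp was in the lists of P2, P4 and P10 and not P28, while both Mef2d peaks and the Otx2 peak at −67120 bp were listed first at P10. The Rax peak, the farther Prdm1 peak and the Otx2 promoter peak were each in 1 list. With each list cut to its top 1221 peaks by the authors' signal, the counts were 3, 6, 4 and 4.

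On promoters, within 1 kb of a start site, lay 3 of 13 members (23.1%), against 55.4% of all 8996 peaks. Over 50 kb from a start site lay 5 of 13 (38.5%), against 8.67% of all. The members over 50 kb are 4 of Otx2 and 1 of Prdm1, and they share 2 genes, so these shares were not tested.

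Other genes of the same network were read from lists, with the strongest peak per gene within 50 kb. Among 20 other photoreceptor transcription factors 12 had a peak, and limma called 9 higher and 1 lower at P10 against P2, and 1 higher and 1 lower at P28 against P2. The list medians were 1.99 and 0.78, beside 1.14 and 0.62 for all 5978 genes with such a peak, of which 2748 were called higher at P10 against P2. At P28 against P10 limma called 0 of the list higher and 4 lower, with a median of −1.10. Of all 5978 genes 1048 were called lower there, with a median of −0.59. Esrrb, a nuclear receptor that supports rod energy metabolism, averaged 119 ± 19.7 RPKM at P28 and 6.45 ± 0.734 at P2 (limma log2 4.00 ± 0.56, adjusted p = 0.000112). Tbx2, a T-box factor of ultraviolet cones, averaged 0.555 ± 0.0217 RPKM at P28 and 4.41 ± 1.27 at P2 (limma log2 −1.78 ± 0.46, adjusted p = 0.0133). Casz1, a zinc finger factor of rod fate, averaged 4.30 ± 2.52 RPKM at P28 and 57.9 ± 0.833 at P10 (limma log2 −3.56 ± 0.58, adjusted p = 0.000374).

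Of 21 photoreceptor genes known as targets of CRX, OTX2 or MEF2D, 18 had a peak. Limma called 18 higher at P10 against P2, 14 higher at P10 against P4 and 10 higher at P28 against P2, with medians of 2.71, 2.13 and 2.00. Of all 5978 genes, 2748, 751 and 573 were called higher in these comparisons, with medians of 1.14, 0.70 and 0.62. At P28 against P10 limma called 0 of these targets higher and 2 lower (Gnb3 and Tulp1), with a median of −1.01 beside −0.59 for all genes. Of 18 eye field and progenitor factors 5 had a peak, and 3 of them fell at P28 against P10 in limma (among them Notch1, −2.69, and Id3, −1.72, log2), with a list median of −1.72 beside −0.59 for all genes, of which 1048 of 5978 were called lower. At P10 against P2 limma called 1 of this list higher, Notch1 (log2 1.56, adjusted p = 0.0202), and 0 lower. Of 13 bipolar genes 4 had a peak, and Irx5 and Irx6 were lower at P28 than at P2 (limma log2 −1.98, adjusted p = 0.00802, and −1.39, adjusted p = 0.048), as were 128 of the 5978. Trpm1 and Bhlhe23 were not called there (limma log2 0.45 and 0.16). Bhlhe23 was called higher at P10 than at P2 (limma log2 1.40, adjusted p = 0.0368), as were 2748 of the 5978. Irx5 was called higher at P10 than at P4 (limma log2 1.36, adjusted p = 0.0484), as were 751. Of 17 paralogs of the members 5 had a peak: limma called Prdm9 and Prdm10 higher at P10 against P2, and Mef2a and Prdm16 lower at P28 against P10, where 2748 and 1048 of the 5978 were so called.

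The genes whose strongest peak most resembled each member's strongest peak were taken from 3103 candidates by Pearson r of log2 values over the 8 libraries, which share the library shift. For the Crx 3′ peak these were Akap8l (0.993), Khdc4 (0.99) and Usf3 (0.99), and 643 candidates had r above 0.9. For Otx2 at −67506 bp they were Atg16l1 (0.984), Nap1l5 (0.983) and Agrn (0.982), with 192 above 0.9. For the upstream Mef2d peak they were Bbs9 (0.991), Pigs (0.988) and Nemp1 (0.988), with 525 above 0.9. For Rax they were Sh3gl1 (0.96), Tsc22d3 (0.95) and Nfasc (0.942), with 41 above 0.9, and for the nearer Prdm1 peak Nadsyn1 (0.925), Dhx35 (0.911) and Psmg3 (0.901), the only 3 above 0.9.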

How the data were processed

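Anti-NRL CUT&RUN libraries were made by the authors with cleavage for 30 min and 10 pg of spike-in DNA, per the labels' protocols. MACS2 2.2.5, bedtools 2.29.0, Picard 2.20.8, Bowtie2 2.3.5.1, Trimmomatic 0.38 and SAMtools 1.9 are listed in the submitters' processing notes. The builds GRCm38.p6 and ASM584v2 are listed there too, all with no order. How peaks were annotated and whether the spike-in was used remain not given in the sources used here.

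The deposited table holds RPKM, as its values show. Each value is a whole number of reads (100% within 0.001) divided by a width and a library scale, but from the second column on the width belonged to another row, 39 rows further up with each column. In P2 replicate 4, 57.6% of widths were off by more than 1.5 times. Reads were recovered and RPKM rebuilt with each peak's own width. The scales, 5.26e+06 to 8.01e+06, are not explained. Signals, scores, ranks and places in the peak lists are the authors' own deposited values, used within a list. A score and a signal describe each deposited peak.

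Values were tested as log2(RPKM + 1) in limma 3.58.1 (R 4.3.3; trend, robust), age as the factor over all 8 libraries together, leaving 4 residual degrees of freedom; Benjamini-Hochberg adjustment over all 8996 peaks, without a filter. The plan foresaw counts or normalized values, and RPKM took the second. The scripts were tested on simulated data. Counts of replicates differed beyond sampling noise in every pair (chi-square over its degrees of freedom 1.16 to 1.57), and all were kept apart. Pearson r between replicates was 0.599 (P2), 0.736 (P4), 0.887 (P10) and 0.707 (P28). Deviations of libraries with the same replicate number correlated by at most 0.0853. With 2 libraries per age the deviations of an age mirror each other, and counts per peak are low. This value thus cannot tell whether the numbers pair libraries.

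All member peaks are reported; those named as neighbours lie within 50 kb of a member's start. The 5 genes, the lists and the rules were chosen with earlier results of these data known. Gene IDs matched the RefSeq table for 8995 of 8996 peaks. Scripts ran in Python 3.11.15 with pandas 2.3.3, NumPy 2.4.6, Matplotlib 3.10.9 and SciPy 1.17.1.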

Additional observations from a re-analysis of the deposited data

How the results depend on the processing

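The counts of called members were recomputed under 15 alternatives, 1 of them (limma-voom on recovered reads with the deposited scales) chosen after seeing the data. An edgeR fit planned for recovered reads was not run, and limma-voom with TMM factors stands in its place. With the values as deposited the counts were 0 of 2 for P10 against P4, 2 of 4 for P28 against P10, 4 of 10 for P10 against P2, 1 of 4 for P28 against P2 and 4 of 11 in the F test. A pseudocount of 0.1 gave 0 for P10 against P4, 0 for P28 against P10, 1 for P28 against P2 and 4 in the F test. Centred libraries gave 1 for P28 against P10, 4 for P10 against P2 and 3 in the F test. Limma-voom with TMM factors gave 5 for P10 against P2 (2 higher, 3 lower), 2 for P28 against P2 and 4 in the F test. For P10 against P4 it gave 0 higher and 3 lower, where the main fit gave 2 higher and 0 lower. Of all peaks it called 463 higher and 606 lower in that step. For P28 against P10 it gave 1 higher and 3 lower, beside 903 higher and 954 lower of all peaks. With a replicate block, although the labels give only a replicate number and no pairing, the counts were 1 for P4 against P2, 0 for P10 against P4, 0 for P28 against P10, 4 for P10 against P2 and 6 in the F test. Without 1 library each, they ranged from 0 to 6 for P4 against P2 (6 without P4 replicate 3), 0 to 7 for P10 against P4 (7 without P4 replicate 4), 0 to 5 for P28 against P10, 5 to 10 for P10 against P2, 1 to 6 for P28 against P2 and 6 to 12 in the F test. The number of all peaks called also moved with the library left out, so these ranges are not particular to the members. With lists cut to 1221 peaks, 4 members were in the P10 list and 4 in that of P28. None of the 20 calls changed direction, and 1 of them, the Mef2d intron 1 peak for P10 against P2, was kept in all 15. The weakest members without a call did turn. For Rax, P4 against P2 was −0.089 as deposited, −0.16 with a pseudocount of 0.1, −0.46 centred, −0.58 with TMM factors and −0.16 with the deposited scales, and P28 against P2 was −0.016 with TMM factors. For the nearer Prdm1 peak, the centred and TMM values were −0.26 and −0.30 for P4 against P2, −0.71 and −0.86 for P10 against P4, −0.97 and −1.16 (limma-voom adjusted p = 0.0465) for P10 against P2, and −0.11 and −0.10 for P28 against P2, and the block gave −0.20 for P10 against P4. Without 1 library each, Otx2 at −67506 bp for P28 against P2 ranged from −0.80 to 0.44 (without P2 replicate 4), Rax from −0.85 (without P4 replicate 4) to 0.88 for P4 against P2, from −1.66 to 0.089 (without P28 replicate 3) for P28 against P10 and from −0.19 (without P28 replicate 4) to 1.56 for P28 against P2, and the nearer Prdm1 peak from −0.20 (without P4 replicate 4) to 0.63 for P4 against P2 and from −0.41 (without P4 replicate 3) to 0.41 for P10 against P4. The cause of these shifts was not tested. With TMM factors the nearer Prdm1 peak was also called higher at P28 than at P10 (log2 1.06, limma-voom adjusted p = 0.0425). Depth limits the weakest members: the Rax peak had 1 to 12 reads per library and the farther Prdm1 peak 0 to 5.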
